A study of Mus musculus with 24 samples.

Results

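Genes that mark endothelial cells, the cells that line blood vessels, lymphatics and the chambers of the heart, were examined in whole hearts of adult mice. The list held 42 symbols, named as pan-endothelial, arterial, venous and endocardial markers, with no measured value in the rule. This list and the other marker lists below were chosen with earlier results of these data known. Their shares beside those of all genes are therefore no independent test. On the array 39 of them had a probe set, 1 each, and all 39 were among the 19801 genes tested of 22139 in the table. Egfl7 and Rasip1 had no probe set annotated to that symbol alone, and the entry Npr matched no symbol. Expression was measured on Clariom S microarrays of 24 male C57/BL6NCr mice, with whole-heart RNA of 1 mouse on each array. The TRα1+m groups were heterozygous for the R384C mutation of the thyroid hormone receptor TRα1, which lowers its affinity for the hormone T3, and the wild-type groups carried 2 normal alleles. The 4 groups of 6 mice were TRα1+m and wild-type offspring of dams given T3, and TRα1+m and wild-type offspring of untreated dams. Treated dams had T3 (0.5 mg/L) in their drinking water, with bovine serum albumin (0.01%) as carrier, by the labels between embryonic days 12.5 and 18.5, and untreated dams had the albumin only. The offspring were given no T3 after birth, lived at 22 °C and were 4 to 5 months old. The mutation is carried in every cell of the body, so the receptor was altered in vessel cells, heart muscle cells and the rest of the animal alike. The comparison asked whether exposure to T3 before birth alters what the mutation does to gene expression in the adult heart.

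Endothelial cells carry receptors for vascular endothelial growth factor (VEGF) and angiopoietins, which govern the sprouting and stability of vessels, and junction proteins that seal the vessel wall. ETS and SOX family transcription factors maintain endothelial gene expression. Arteries, veins, capillaries and endocardium differ in part of their genes, with Notch ligands and ephrin-B2 on the arterial side and EphB4 and the apelin receptor on the venous side. The adult heart is dense in capillaries, and its growth, vessel supply and beating rate respond to thyroid hormone.

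Flt1 and Tie1 were lower in TRα1+m mice over both treatments, whereas their relatives Kdr and Tek did not pass the test, and the differences between relatives were not tested. The 150 bases before a RefSeq transcript start of each of these 4 genes, and of Aqp1, the capillary gene with the smallest p over both treatments, follow for GRCm38.p6, 5′ to 3′ on the strand of the gene. Capitals mark GGAA or its complement TTCC, the core of ETS factor sites. For Flt1, Kdr and Tek the annotated gene begins further upstream than the start used, so these windows overlap the gene, and other starts of these genes are not shown.
Flt1, chr5:147726012-147726161, minus strand: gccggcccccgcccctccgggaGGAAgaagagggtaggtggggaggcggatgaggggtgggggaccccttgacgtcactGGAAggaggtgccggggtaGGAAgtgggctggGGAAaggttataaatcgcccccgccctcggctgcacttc
Kdr, chr5:75978456-75978605, minus strand: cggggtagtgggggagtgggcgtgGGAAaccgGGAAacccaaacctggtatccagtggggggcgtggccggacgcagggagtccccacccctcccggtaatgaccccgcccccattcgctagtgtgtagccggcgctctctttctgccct
Tie1, chr4:118489850-118489999, minus strand: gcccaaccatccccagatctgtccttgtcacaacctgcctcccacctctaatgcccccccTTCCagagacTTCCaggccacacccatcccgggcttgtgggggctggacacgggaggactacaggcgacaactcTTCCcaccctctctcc
Tek, chr4:94739139-94739288, plus strand: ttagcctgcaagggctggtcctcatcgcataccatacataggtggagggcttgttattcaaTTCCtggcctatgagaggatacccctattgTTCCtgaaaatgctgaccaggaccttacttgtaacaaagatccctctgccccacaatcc
Aqp1, chr6:55336149-55336298, plus strand: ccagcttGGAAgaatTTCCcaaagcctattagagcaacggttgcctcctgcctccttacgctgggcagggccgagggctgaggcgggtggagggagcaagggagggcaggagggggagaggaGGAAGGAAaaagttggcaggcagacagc

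The cores numbered 4 for Flt1, 2 for Kdr, 3 for Tie1, 2 for Tek and 4 for Aqp1. Over the 250 bases before the start, GGAA on either strand occurred in 28 of 31 promoters of 26 listed genes (90.32%), and in 93.45% of all 32851 promoters in the table. The longer GGAAG, which contains GGAA, occurred in 77.42% of these 31 and in 64.07% of all promoters. AGGTCA, the half-site that thyroid hormone receptors bind, occurred on either strand in 7 of the 31 (22.58%) and in 14.02% of all promoters. None of the 5 sequences above contains it. For the genes that were lower over both treatments, 1 of 7 promoters of 5 genes had AGGTCA and 6 of 7 had GGAAG. These genes were Flt1, Tie1, Aqp1, Eng and Erg. Erg had several promoters, among them the 1 with AGGTCA. No promoter sequence was found for Aplnr, Vwf, Thbd, Sox7 and Mmrn2, which were also lower. A match says only that these letters occur in the window.

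The median log2 value of an array was between 6.31 and 6.38. Scores on principal component 1, which held 17.51% of the variance, separated 5 mice from the others, namely untreated TRα1+m mouse 4, T3-exposed wild-type mice 14 and 15 and T3-exposed TRα1+m mice 16 and 17. Numbers are those in the labels, where 9 mice are numbered below 20 and 15 above 30, with no meaning stated. Numbers below 20 were given to 2 of 6 T3-exposed TRα1+m, 3 of 6 T3-exposed wild-type, 3 of 6 untreated TRα1+m and 1 of 6 untreated wild-type mice. The pan-endothelial junction genes Pecam1 (CD31) and Cdh5 (VE-cadherin) were measured far above the filter in every group. Pecam1 averaged 12.57 ± 0.27 and 12.45 ± 0.37 in T3-exposed TRα1+m and wild-type mice, and 12.45 ± 0.20 and 12.38 ± 0.11 in untreated TRα1+m and wild-type mice (log2, SD, n = 6 each). For Cdh5 these means were 15.13 ± 0.35 and 15.21 ± 0.39, and 15.19 ± 0.29 and 15.36 ± 0.20 (SD, n = 6 each).

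Without maternal T3, the apelin receptor Aplnr, the water channel Aqp1, von Willebrand factor Vwf, the receptor Tie1 and thrombomodulin Thbd had lower values in TRα1+m hearts than in those of wild-type mice. The threshold for a call was an adjusted p of 0.05 in limma, adjusted over all genes tested. These 5 of 39 genes (12.8%) fell, and 0 rose, while 1.06% of all genes tested were lower and 0.566% higher. After maternal T3, Aplnr, Aqp1 and Vwf were lower, and again 0 of the 39 were higher. Of all genes, 1.66% were lower and 1.13% higher in that comparison. Over both treatments, which doubles the mice per genotype, 10 of 39 genes (25.6%) were lower and 0 higher, at unadjusted p under 0.05 12 lower and 1 higher. Of all genes tested 3.7% were lower and 2.59% higher. The median log2 change of the 39 genes was -0.15, with 28 negative (71.8%), and that of all genes was -0.01, with 51.5% negative. The p-values rest on the spread between mice, and litters or dams are not given in the labels. Whole-heart RNA cannot tell fewer endothelial cells from less of a transcript in each cell.

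Aplnr, the receptor of the peptide apelin on endothelial cells, had the largest genotype difference of the list. In untreated mice, Aplnr had lowest, median and highest log2 values of 8.49, 9.28 and 10.07 in TRα1+m hearts and of 10.35, 10.96 and 11.25 in wild-type hearts. After maternal T3, Aplnr had 8.73, 9.41 and 10.08 in TRα1+m hearts and 10.37, 10.83 and 11.52 in wild-type hearts. All 12 TRα1+m mice lay below all 12 wild-type mice. The log2 change was -1.60 without T3 (standard error 0.26, adjusted p = 0.00066) and -1.55 after T3 (standard error 0.26, adjusted p = 0.000625). Over both treatments the level in TRα1+m hearts was 0.336 times that in wild-type hearts (log2 change -1.57, standard error 0.18, adjusted p = 1.5e-06). The gene lies at chr2:85136360-85139923. Its ligand gene Apln averaged 7.06 ± 0.63 and 7.48 ± 0.43 in T3-exposed TRα1+m and wild-type mice, and 7.23 ± 0.45 and 7.34 ± 0.56 in untreated TRα1+m and wild-type mice (SD, n = 6 each). Apln did not pass over both treatments (log2 change -0.27, 95% confidence interval -0.67 to 0.13, adjusted p = 0.527).

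Aqp1, the water channel of capillary endothelium and red blood cells, separated the genotypes as completely. Untreated TRα1+m hearts had Aqp1 values of 12.20, 12.79 and 13.39 (lowest, median and highest), and untreated wild-type hearts 13.52, 14.14 and 14.27. T3-exposed TRα1+m hearts had Aqp1 values of 12.35, 12.80 and 13.38, against 13.69, 14.05 and 14.37 in T3-exposed wild-type hearts. Neither pair of groups overlapped, and the closest mice were untreated. The log2 change of Aqp1 was -1.26 without T3 (standard error 0.21, adjusted p = 0.000751) and -1.30 after T3 (standard error 0.21, adjusted p = 0.000373). Over both it was -1.28 (standard error 0.15, adjusted p = 1.27e-06), a level of 0.413 times that in wild-type hearts. In untreated mice the size differed between the label ranges, at -0.78 above 30, where Aqp1 did not pass alone (adjusted p = 0.126), and -1.82 below 20, where 3 TRα1+m mice faced 1 wild-type mouse. Of the red blood cell genes Slc4a1 and Alas2, neither passed, with changes of 0.10 and -0.08 over both treatments (adjusted p = 0.828 and adjusted p = 0.937). Alas2 averaged 10.59 in untreated TRα1+m and 10.18 in untreated wild-type mice, but 9.58 and 10.16 after maternal T3. Only these 2 of 6 listed red blood cell genes were measured, and no haemoglobin gene was among them. Aqp1 lies at chr6:55336299-55348555.

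The other capillary genes of the list did not pass in any genotype comparison. Ly6c1, a surface antigen of capillary endothelium and of monocytes, averaged 12.37 ± 1.02 and 12.75 ± 0.55 in T3-exposed TRα1+m and wild-type mice, and 11.86 ± 0.52 and 12.33 ± 0.18 in untreated TRα1+m and wild-type mice (SD, n = 6 each). Its change over both treatments was -0.43 (95% confidence interval -0.91 to 0.06, adjusted p = 0.363). Without the 5 mice set apart Ly6c1 passed as lower, without T3 and over both treatments. Car4, a capillary carbonic anhydrase, Rgcc, a cell cycle regulator, and Gpihbp1, which holds lipoprotein lipase on the capillary wall, had changes of -0.12, 0.15 and 0.20 over both treatments.

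Vwf, the platelet-binding glycoprotein made in endothelial cells and megakaryocytes, was measured at 0.520 times the wild-type level in TRα1+m hearts over both treatments. In untreated mice, Vwf had values of 8.51, 8.84 and 9.15 in TRα1+m hearts and of 9.43, 9.85 and 10.34 in wild-type hearts (lowest, median and highest). After maternal T3, Vwf had 8.46, 9.05 and 9.60 in TRα1+m hearts and 9.31, 10.10 and 10.31 in wild-type hearts. The untreated groups did not overlap, and the T3-exposed groups overlapped by 1 of 36 pairs, formed by TRα1+m mouse 16 and wild-type mouse 14. The log2 change of Vwf was -0.99 without T3 (standard error 0.19, adjusted p = 0.00362), -0.90 after T3 (standard error 0.19, adjusted p = 0.00647) and -0.94 over both (standard error 0.14, adjusted p = 2.58e-05). Vwf lies at chr6:125552948-125686679. Of 5 platelet and megakaryocyte markers tested (Pf4, Ppbp, Itga2b, Gp9 and Gp6), 0 passed over both treatments in limma, with 0 at unadjusted p under 0.05. All 5 had positive changes, of which Gp6 at 0.28 (adjusted p = 0.617) and Itga2b at 0.26 (adjusted p = 0.351) were largest. Gp6 was measured close to the filter of 4, with group means of 4.15 to 4.69, and the SD of Ppbp within a group reached 1.955. The part of platelets and megakaryocytes in the fall of Vwf was not tested.

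Thbd, thrombomodulin, which turns thrombin to an anticoagulant role, was lower in untreated TRα1+m hearts. In untreated mice, Thbd had values of 10.55, 10.88 and 11.17 in TRα1+m hearts and of 11.30, 11.40 and 11.88 in wild-type hearts, with no overlap. After maternal T3, Thbd had 10.59, 11.06 and 11.28 in TRα1+m hearts and 10.87, 11.21 and 11.44 in wild-type hearts, and these groups overlapped. The change was -0.60 without T3 (standard error 0.15, adjusted p = 0.029), -0.16 after T3 (standard error 0.15, adjusted p = 0.726) and -0.38 over both (standard error 0.11, adjusted p = 0.0265). The difference between the genotype changes with and without T3 did not pass (0.45, unadjusted p = 0.042, adjusted p = 0.9996). Thbd without T3 missed the threshold with mice numbered above 30 alone (-0.48, adjusted p = 0.157), with the label range as a block (-0.57, adjusted p = 0.0544) and in 5 of the 24 fits lacking 1 mouse each, namely untreated wild-type mouse 2 or 37 or untreated TRα1+m mouse 4, 6 or 54. Over both treatments it missed without untreated wild-type mouse 2 (adjusted p = 0.0537) and with mice numbered above 30 alone (-0.28, adjusted p = 0.161). Thbd lies at chr2:148404471-148408188. Procr, the endothelial protein C receptor, and Selp, P-selectin, each had a change of -0.24 over both treatments, with adjusted p = 0.436 for Procr and adjusted p = 0.637 for Selp.

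Tie1, the orphan relative of the angiopoietin receptor, was lower in TRα1+m hearts, and the angiopoietin receptor gene itself, Tek, did not pass. In untreated mice, Tie1 had values of 9.61, 10.11 and 10.30 in TRα1+m hearts and of 10.49, 10.84 and 11.19 in wild-type hearts (lowest, median and highest). After maternal T3, Tie1 had 10.18, 10.33 and 10.51 in TRα1+m hearts and 10.40, 10.65 and 11.20 in wild-type hearts. The untreated groups did not overlap and the T3-exposed groups did. Tie1 changed by -0.81 without T3 (standard error 0.16, adjusted p = 0.00358) and by -0.61 over both treatments (standard error 0.11, adjusted p = 0.000532). After T3 its change was -0.41 (standard error 0.16, adjusted p = 0.198), and the difference between both changes did not pass (0.41, unadjusted p = 0.0767, adjusted p = 0.9996). With mice numbered above 30 alone, Tie1 missed the threshold without T3 (-0.68, adjusted p = 0.0695). Tie1 lies at chr4:118471191-118489849. Tek had changes of -0.48 without T3 (adjusted p = 0.262) and 0.01 after T3, and -0.24 over both (95% confidence interval -0.51 to 0.03, adjusted p = 0.365).

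Flt1, the VEGF receptor 1 gene, was lower over both treatments. In untreated mice, Flt1 had values of 11.93, 12.36 and 12.47 in TRα1+m hearts and of 12.83, 12.96 and 13.06 in wild-type hearts. After maternal T3, Flt1 had 11.82, 12.38 and 12.82 in TRα1+m hearts and 12.15, 12.90 and 13.17 in wild-type hearts. The untreated groups did not overlap, whereas the T3-exposed groups spread widely and did. Over both treatments Flt1 changed by -0.54 (standard error 0.13, adjusted p = 0.0082). Without T3 it missed the threshold at -0.64 (standard error 0.18, adjusted p = 0.0656). It passed there with a stricter filter, with trended and robust variances, with array weights, in a fit of the 2 groups alone, without the 5 mice set apart, and without T3-exposed wild-type mouse 14 or T3-exposed TRα1+m mouse 16 (adjusted p from 0.00895 to 0.0498). Flt1 lies at chr5:147561604-147726438. Kdr, the VEGF receptor 2 gene, had a change of -0.15 (95% confidence interval -0.44 to 0.14, adjusted p = 0.646) and Flt4, the VEGF receptor 3 gene of lymphatic vessels, of -0.22 (adjusted p = 0.26). Ptprb, the vascular phosphatase that acts on Tie2, the product of Tek, had a change of -0.14 (adjusted p = 0.595).

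**Figure D1:**
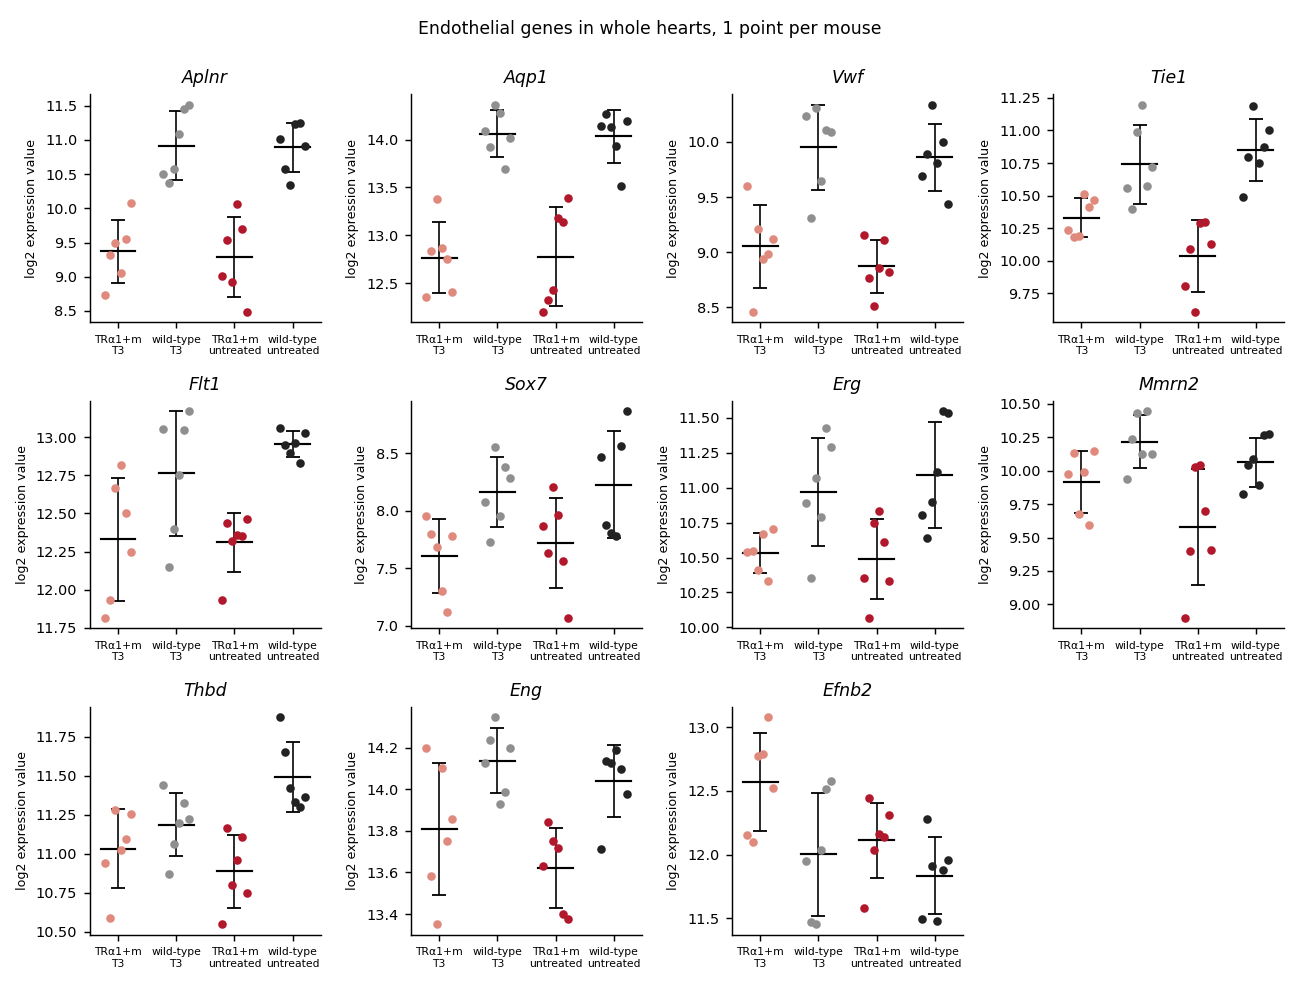
Log2 expression value (y axis) of the 10 endothelial genes that were lower in TRα1+m hearts over both treatments, in the order of their change, and of Efnb2, with 1 point per mouse, the group mean as a line and bars of 1 SD (6 mice per group). For Aplnr and Aqp1 every TRα1+m mouse lies below every wild-type mouse under the same treatment, while Mmrn2, Eng, Erg and Sox7 overlap.

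Groups of 6 that did not overlap gave a second view of these differences. Without T3, TRα1+m mice lay below all wild-type mice for 6 of 39 genes (Aplnr, Aqp1, Flt1, Thbd, Tie1 and Vwf) and above them for 0, and this held for 1.83% of all genes tested below and 0.924% above. After T3 it held for 2 of 39 below, Aplnr and Aqp1, and 0 above, against 1.08% of all genes below and 0.818% above.

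Among the transcription factors, Erg and Sox7 were lower over both treatments. Erg is an ETS factor of endothelial cells. Untreated TRα1+m hearts had Erg values of 10.07, 10.48 and 10.83, and untreated wild-type hearts 10.64, 11.004 and 11.55 (lowest, median and highest). T3-exposed TRα1+m hearts had Erg values of 10.34, 10.54 and 10.71, against 10.35, 10.98 and 11.43 in T3-exposed wild-type hearts. Both pairs of groups overlapped at the low wild-type mice. Erg changed by -0.52 (standard error 0.13, adjusted p = 0.0129), with -0.60 in untreated mice (adjusted p = 0.111) and -0.44 in T3-exposed mice (adjusted p = 0.262). Erg lies at chr16:95359169-95586600.

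Sox7 is a SOX factor of early and adult endothelium. Untreated TRα1+m hearts had Sox7 values of 7.07, 7.75 and 8.21, and untreated wild-type hearts 7.78, 8.17 and 8.87. T3-exposed TRα1+m hearts had Sox7 values of 7.12, 7.74 and 7.96, against 7.73, 8.18 and 8.56 in T3-exposed wild-type hearts. The groups overlapped under both treatments. Sox7 changed by -0.53 over both (standard error 0.15, adjusted p = 0.0279) and missed the threshold in 7 of the 24 fits lacking 1 mouse each, namely untreated wild-type mouse 2, 57 or 58, untreated TRα1+m mouse 54, T3-exposed wild-type mouse 15 or T3-exposed TRα1+m mouse 50 or 51 (highest adjusted p = 0.0555). Sox7 lies at chr14:63943706-63950732. Its relatives Sox18, of blood and lymphatic vessels, and Sox17, of arteries, had changes of -0.21 (adjusted p = 0.475) and 0.18 (adjusted p = 0.585), and the nuclear receptor gene Nr2f6 of 0.05 (adjusted p = 0.927).

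Eng and Mmrn2 were lower among the surface and matrix genes. Eng encodes endoglin, a co-receptor for TGF-β and BMP ligands. Untreated TRα1+m hearts had Eng values of 13.38, 13.68 and 13.84, against 13.71, 14.11 and 14.19 in untreated wild-type hearts. T3-exposed TRα1+m hearts had Eng values of 13.35, 13.81 and 14.20, against 13.93, 14.16 and 14.35 in T3-exposed wild-type hearts. The groups overlapped, most of all after T3. Eng changed by -0.38 over both (standard error 0.10, adjusted p = 0.0241), and without the 5 mice set apart it was at -0.36 (adjusted p = 0.0514). In untreated mice its difference was -0.61 above 30 and 0.03 below 20, where 3 TRα1+m mice faced 1 wild-type mouse. Eng lies at chr2:32646595-32682669.

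Mmrn2, a matrix glycoprotein of the endothelial cell surface, stood closest to the threshold. Untreated TRα1+m hearts had Mmrn2 values of 8.90, 9.55 and 10.04, against 9.83, 10.07 and 10.27 in untreated wild-type hearts. T3-exposed TRα1+m hearts had Mmrn2 values of 9.60, 9.98 and 10.15, against 9.94, 10.18 and 10.45 in T3-exposed wild-type hearts. The lowest mouse was untreated TRα1+m mouse 4, one of the 5 set apart. Mmrn2 changed by -0.39 over both (standard error 0.12, adjusted p = 0.0474), missed the threshold in 17 of the 24 fits lacking 1 mouse each and was at -0.33 without the 5 mice (adjusted p = 0.112). Mmrn2 lies at chr14:34375504-34404287. The other surface genes did not pass over both treatments. They were S1pr1, the sphingosine phosphate receptor (-0.15), Robo4, a guidance receptor that steadies vessels (-0.15), Emcn, a sialomucin of capillaries and veins (-0.08), Plvap, the diaphragm protein of fenestrated and venous endothelium (-0.08), and Cd34, a sialomucin (0.11).

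None of the 6 junction and adhesion genes passed in limma in a genotype comparison, with 1 at unadjusted p under 0.05 over both treatments. Cldn5, claudin-5 of tight junctions, had the largest change, with means of 8.82 ± 0.47 and 8.30 ± 0.42 in T3-exposed TRα1+m and wild-type mice, and 8.69 ± 0.72 and 8.44 ± 0.26 in untreated TRα1+m and wild-type mice (SD, n = 6 each). Its change over both treatments was 0.38 (95% confidence interval -0.002 to 0.767, adjusted p = 0.284). Icam2, an adhesion molecule for leukocytes, had means of 7.94 ± 0.35 and 8.29 ± 0.36 after maternal T3 and 7.94 ± 0.31 and 8.13 ± 0.14 without, TRα1+m before wild-type in each pair (SD, n = 6 each). Its change over both was -0.27 (95% confidence interval -0.53 to -0.02, adjusted p = 0.243). Pecam1 was at 0.09 (95% confidence interval -0.14 to 0.32, adjusted p = 0.742), Cdh5 at -0.13 (95% confidence interval -0.40 to 0.14, adjusted p = 0.68), Esam, an adhesion molecule of tight junctions, at -0.04 and Cgnl1, a junction scaffold, at 0.11. For Pecam1 and Cdh5, intervals of this width leave out falls as large as those of Aplnr, Aqp1 and Vwf. The interval of Cdh5 includes falls as small as those of Eng and Mmrn2. Of 19 pan-endothelial genes, 16 had negative changes over both treatments, with a median of -0.15. A change in the number of endothelial cells was not tested.

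**Figure D2:**
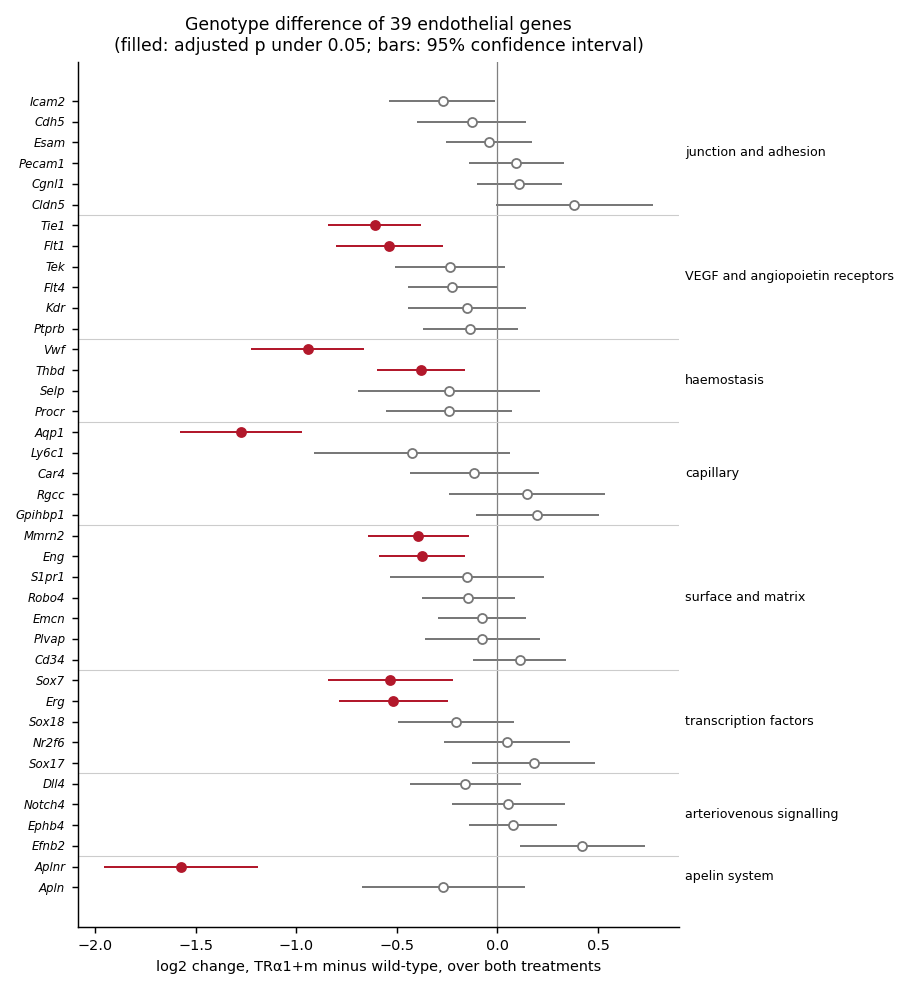
Log2 change of 39 endothelial genes between TRα1+m and wild-type hearts over both treatments (x axis, TRα1+m minus wild-type, 12 mice each), grouped by role, with 95% confidence intervals and filled points for an adjusted p under 0.05. The 10 filled points all lie left of 0 and come from 6 of the 8 roles, and the junction genes scatter around 0.

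By vessel type, the genes lower over both treatments were 6 of 19 pan-endothelial (Tie1, Flt1, Sox7, Erg, Eng and Mmrn2), 1 of 5 capillary (Aqp1), 1 of 3 venous (Aplnr), 1 of 2 venous and endocardial (Vwf), 0 of 4 arterial and 1 of 6 without a class (Thbd). Among all genes tested, 3.7% were lower over both treatments. The arterial genes were Efnb2, the ephrin-B2 ligand, the Notch ligand gene Dll4, the Notch receptor gene Notch4 and Sox17. Sox17 was measured close to the filter of 4, with group means of 4.33 to 4.71, and Notch4 had group means of 5.555 to 5.81. Efnb2 averaged 12.57 ± 0.39 and 12.00 ± 0.49 in T3-exposed TRα1+m and wild-type mice, and 12.11 ± 0.30 and 11.84 ± 0.30 in untreated TRα1+m and wild-type mice (SD, n = 6 each). Its change of 0.42 over both did not pass (standard error 0.15, adjusted p = 0.0966). With array weights, with the label range as a block, or without the 5 mice set apart Efnb2 passed as higher, at 0.47 (adjusted p = 0.0344), 0.47 (adjusted p = 0.0145) and 0.45 (adjusted p = 0.0304). Dll4 averaged 9.89 ± 0.34 and 9.91 ± 0.28 in T3-exposed TRα1+m and wild-type mice, and 9.71 ± 0.42 and 10.01 ± 0.21 in untreated TRα1+m and wild-type mice (SD, n = 6 each). Dll4 had a change of -0.16, Notch4 of 0.05 and Ephb4, the venous receptor for ephrin-B2, of 0.08, with adjusted p from 0.588 to 0.896.

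The genotype comparisons with and without T3 share no mice. Of the 39 genes, 20 were negative in both, 6 positive in both and 13 of opposite sign, against 6323, 5917 and 7561 of all 19801 genes tested. Aplnr, Aqp1 and Vwf passed as lower in both, as did 137 of all genes. The change after T3 minus that without T3 was 0.06 for Aplnr (95% confidence interval -0.70 to 0.81), -0.04 for Aqp1 (-0.64 to 0.56) and 0.09 for Vwf (-0.46 to 0.64).

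**Figure D3:**
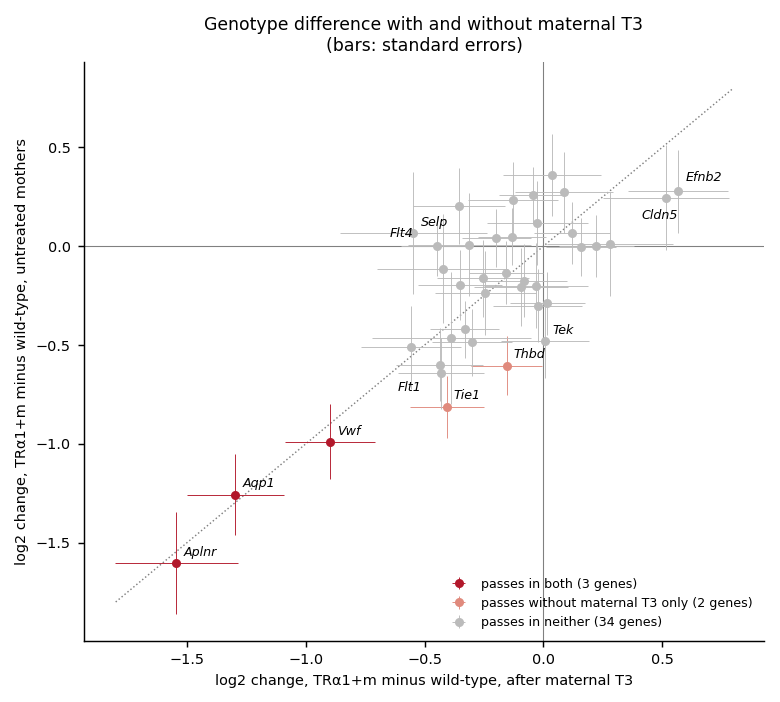
Log2 change between TRα1+m and wild-type hearts after maternal T3 (x axis) and without it (y axis) for 39 endothelial genes, with standard errors and a dotted line of equal change. Aplnr, Aqp1 and Vwf lie near that line at the lower left, and Tie1 and Thbd lie below it.

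Maternal T3 left no endothelial gene past the threshold. In TRα1+m mice, 0 of 39 genes passed in limma, with 2 higher and 1 lower at unadjusted p under 0.05, and of all genes 0.0101% were higher and 0.0758% lower. The smallest p belonged to Cd34 (0.39, adjusted p = 0.524), Flt4 (-0.36, adjusted p = 0.535) and Efnb2 (0.46, adjusted p = 0.573). In wild-type mice, 0 of 39 passed, with 2 higher and 0 lower at unadjusted p under 0.05, and 0.00505% of all genes were higher and 0% lower. The smallest p belonged to Plvap (0.60, adjusted p = 0.322), Selp (0.64, adjusted p = 0.452) and Thbd (-0.30, adjusted p = 0.455). Over both genotypes, 0 passed, with 4 higher at unadjusted p under 0.05 (Cd34, Plvap, Efnb2 and Mmrn2) and 0 lower, and 0.0101% of all genes were higher and 0% lower. Cd34 was at 0.28 (adjusted p = 0.22), Plvap at 0.32 (adjusted p = 0.244) and Efnb2 at 0.31 (adjusted p = 0.296).

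Plvap had the smallest p of the list for maternal T3 in wild-type mice. Its lowest, median and highest values were 5.48, 5.85 and 6.14 in T3-exposed wild-type hearts and 4.95, 5.27 and 5.75 in untreated wild-type hearts. The T3-exposed mouse was the higher in 34 of 36 pairs. In TRα1+m hearts Plvap had 4.99, 5.54 and 5.91 after T3 and 4.84, 5.56 and 5.92 without, and these groups covered nearly the same range.

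For the genes that differed by genotype, no change with maternal T3 passed the test in TRα1+m mice. The change with maternal T3 in TRα1+m mice was 0.08 for Aplnr (95% confidence interval -0.45 to 0.61), -0.01 for Aqp1 (-0.44 to 0.41) and 0.18 for Vwf (-0.21 to 0.57). Each upper bound is smaller than the size of that gene's genotype difference without T3. The change was 0.30 for Tie1 (95% confidence interval -0.03 to 0.61) and 0.14 for Thbd (-0.16 to 0.45). Mmrn2 had the largest change of the 10 genes, at 0.34 (95% confidence interval -0.01 to 0.69, adjusted p = 0.61). For Tie1, Thbd and Mmrn2 the interval reaches the size of the genotype difference over both treatments. For Tie1 and Thbd it stays below the size of that gene's difference without T3. That difference has an error of its own and shares the untreated TRα1+m mice, so for these genes a full reversal is not excluded. For Flt1, Erg, Sox7 and Eng the changes were 0.02, 0.04, -0.11 and 0.19, and their intervals are not compared here.

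For the interaction, in which the change with maternal T3 in wild-type mice is subtracted from that in TRα1+m mice, 0 of 39 genes and 0% of all genes passed in limma in either direction, with 1 of the 39 higher (Thbd) and 1 lower (Flt4) at unadjusted p under 0.05. Thbd was at 0.45, Flt4 at -0.45 and Plvap at -0.56, each with adjusted p = 0.9996.

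**Figure D4:**
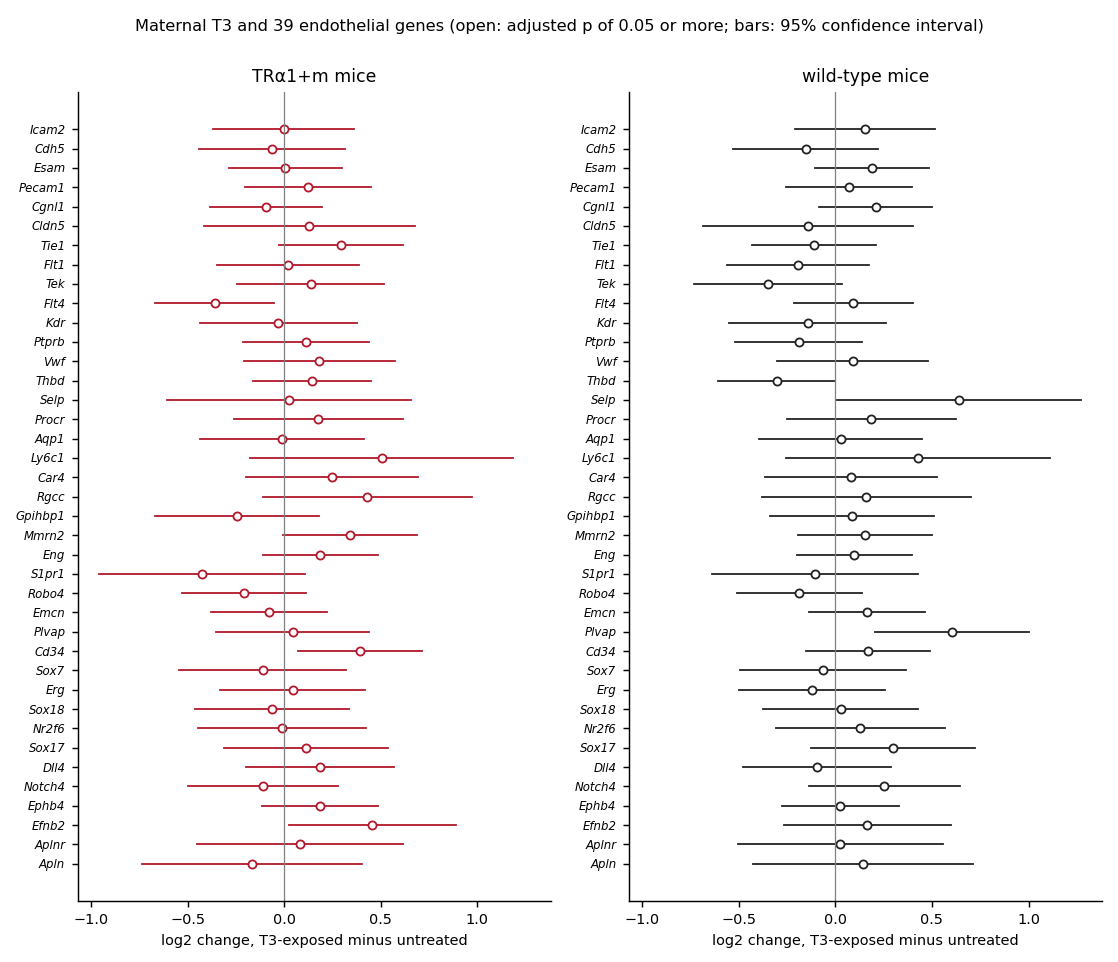
Log2 change of 39 endothelial genes with maternal T3 (x axis, T3-exposed minus untreated, 6 mice each) in TRα1+m mice on the left and wild-type mice on the right, with 95% confidence intervals. No gene passed the test in either genotype, and most intervals cover 0, with Plvap and Selp at the far right in wild-type mice.

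Set against untreated wild-type mice, T3-exposed TRα1+m mice had 4 of 39 genes lower and 1 higher, against 2.13% of all genes lower and 2.32% higher. Aplnr was at -1.52 (adjusted p = 0.000658), Aqp1 at -1.27 (adjusted p = 0.000401), Vwf at -0.81 (adjusted p = 0.0117) and Flt1 at -0.62 (adjusted p = 0.0433). Efnb2 was the gene that rose. Its lowest, median and highest values were 12.10, 12.65 and 13.08 in T3-exposed TRα1+m hearts and 11.48, 11.90 and 12.28 in untreated wild-type hearts. The T3-exposed TRα1+m mouse was the higher in 34 of 36 pairs, and the change was 0.73 (standard error 0.21, adjusted p = 0.042). Efnb2 lies at chr8:8617235-8661242. It missed the threshold in 9 of the 24 fits lacking 1 mouse each, namely untreated wild-type mouse 2, 39, 56, 57 or 58 or T3-exposed TRα1+m mouse 49, 50, 51 or 55 (highest adjusted p = 0.101), and Flt1 in 13 of 24. Without the 5 mice set apart Flt1 was at -0.40 (adjusted p = 0.0939).

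Label number ranges were not evenly spread over the groups, so the genotype difference over both treatments was also taken within each range. All 10 lower genes were negative in both, but they were called over these same mice, so their signs are no independent check. Aplnr was at -1.63 above 30 and -1.66 below 20, Aqp1 at -0.96 and -1.68, Vwf at -0.93 and -0.90 and Tie1 at -0.56 and -0.55. The other 6 ran from -0.69 to -0.28 above 30 and from -0.74 to -0.16 below 20. The values below 20 rest on 1 untreated wild-type mouse and 2 T3-exposed TRα1+m mice, among others. All 5 mice set apart were numbered below 20, so leaving them out is not separate from the label range. Without the 5 mice set apart, 9 genes were lower over both treatments (Ly6c1 in, Eng and Mmrn2 out), 7 without T3 (Flt1 and Ly6c1 added) and the same 3 after T3.

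Of 49 tested genes of VEGF, angiopoietin, Notch and related pathways, 8 were lower and 1 higher over both treatments. Among all genes tested, 3.7% were lower and 2.59% higher. The signal of the chemokine ligand gene Cxcl12, which guides endothelial and blood cells, fell by 1.12 (adjusted p = 9.81e-06), and that of its scavenger receptor gene Ackr3 fell by 0.82 (adjusted p = 0.00239). Its signalling receptor gene Cxcr4 rose by 0.59 (adjusted p = 0.00394). Cxcl12 averaged 12.76 ± 0.22 and 13.89 ± 0.58 in T3-exposed TRα1+m and wild-type mice, and 12.68 ± 0.42 and 13.79 ± 0.10 in untreated TRα1+m and wild-type mice (SD, n = 6 each). Adrenomedullin, a vasodilator peptide encoded by Adm, fell by 0.69 (adjusted p = 0.00412), the VEGF co-receptor gene Nrp2 by 0.54 (adjusted p = 0.0105), and Nos3, endothelial nitric oxide synthase, by 0.50 (adjusted p = 0.0145). Heg1, a receptor that stabilises junctions, fell by 0.50 (adjusted p = 0.00376), the hypoxia factor gene Epas1 by 0.42 (adjusted p = 0.00121) and Angpt1, the ligand of the product of Tek, by 0.54 (adjusted p = 0.05, below the threshold before rounding). Among single comparisons, Cxcl12, Nos3 and Cxcr4 passed without T3, and Cxcl12, Epas1 and Heg1 after T3. The median change of the 49 genes over both treatments was -0.03, with 25 negative.

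Of 38 tested further endothelial markers, 5 were lower and 3 higher over both treatments, against 3.7% and 2.59% of all genes tested. Those lower were Ly6e, a Ly6 surface protein gene expressed in many cells (-0.68), Tcf15, a factor of heart capillaries (-0.66), Cd93, an endothelial surface lectin-like receptor (-0.63), Icam1, an adhesion molecule for leukocytes (-0.57), and Col4a2, a basement membrane collagen (-0.44). The laminin gene Lamb1 rose by 0.65, the elastic fibre gene Fbln5 by 0.67 and Ctla2a by 0.67. The adjusted p of these 8 ran from 0.000277 to 0.0455. The list's median change was 0.03, with 17 of 38 negative. Of 5 endocardial markers, Npr3, the natriuretic peptide clearance receptor, and Nrg1, neuregulin, were lower (-0.71, adjusted p = 0.0123, and -0.46, adjusted p = 0.0309). Nfatc1, an endocardial marker of the same list, went the other way at 0.26. Its unadjusted p in limma was under 0.05, but it did not pass. Nfatc1 averaged 10.08 and 9.73 in T3-exposed TRα1+m and wild-type mice, and 9.82 and 9.65 in untreated TRα1+m and wild-type mice. Of 6 markers of lymphatic endothelium 0 passed over both treatments in limma, with 0 at unadjusted p under 0.05, and Lyve1 (0.16, adjusted p = 0.691) and Pdpn (0.13, adjusted p = 0.662) had the largest changes.

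Markers of other heart cells moved with genotype in both directions. Over both treatments, 3.7% of all genes tested were lower and 2.59% higher. Of 7 fibroblast genes 4 were higher over both treatments, which were Col1a2 (0.89), Col1a1 (0.78), Col3a1 (0.75) and Dpt (0.47), and all 7 were positive. Of 8 leukocyte genes 3 were lower, which were Itgam (-0.82), Csf1r (-0.66) and Cd14 (-0.60), and all 8 were negative. The pericyte gene Cspg4 was higher (0.47, adjusted p = 0.0254), 1 of 8 tested, and the ventricular light chain gene Myl3 was lower (-0.41, adjusted p = 0.00859), 1 of 8 tested. The mean of the fibroblast list was 12.46 to 13.73 and 11.86 to 12.48 in T3-exposed TRα1+m and wild-type mice, and 12.24 to 12.94 and 11.58 to 12.08 in untreated TRα1+m and wild-type mice. For the leukocyte list these ranges were 7.53 to 9.10 and 8.13 to 8.84, and 7.32 to 7.94 and 7.99 to 8.47. The ventricular list covered 18.18 to 18.45 and 18.22 to 18.48, and 18.17 to 18.31 and 18.16 to 18.37. The part of these other cells in the endothelial differences was not tested.

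Of 7 smooth muscle genes 0 passed over both treatments in limma, with 1 higher at unadjusted p under 0.05 (Myh11, 0.44, adjusted p = 0.279), and Cnn1 was at 0.48 (adjusted p = 0.435). No gene passed, or had an unadjusted p under 0.05, among 5 atrial genes (Nppa at -0.54, Dkk3 at 0.29), 5 lung genes (Scgb1a1 at -0.42, Sftpc at 0.19) and 4 adipocyte genes tested (Adipoq at 0.99, Plin1 at 0.77). The mean of the atrial list varied widely between mice, from 10.93 in untreated wild-type mouse 2 to 15.59 in T3-exposed wild-type mouse 14. Mouse 14 and the T3-exposed mice 15 (15.32) and 16 (15.20), all among the 5 set apart, were the highest. Mice 4 and 17, also set apart, were not (13.40 and 13.86).

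The mean of the 39 endothelial genes in each mouse was 9.65 to 9.90 and 9.82 to 10.06 in T3-exposed TRα1+m and wild-type mice, and 9.63 to 9.79 and 9.87 to 10.002 in untreated TRα1+m and wild-type mice. It overlapped between the genotypes after T3 and not without T3, and it includes the 10 genes that passed. The mean of the further endothelial markers overlapped under both treatments, at 9.92 to 10.30 and 9.85 to 10.05 in T3-exposed TRα1+m and wild-type mice, and 9.86 to 9.99 and 9.77 to 9.998 in untreated TRα1+m and wild-type mice.

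**Figure D5:**
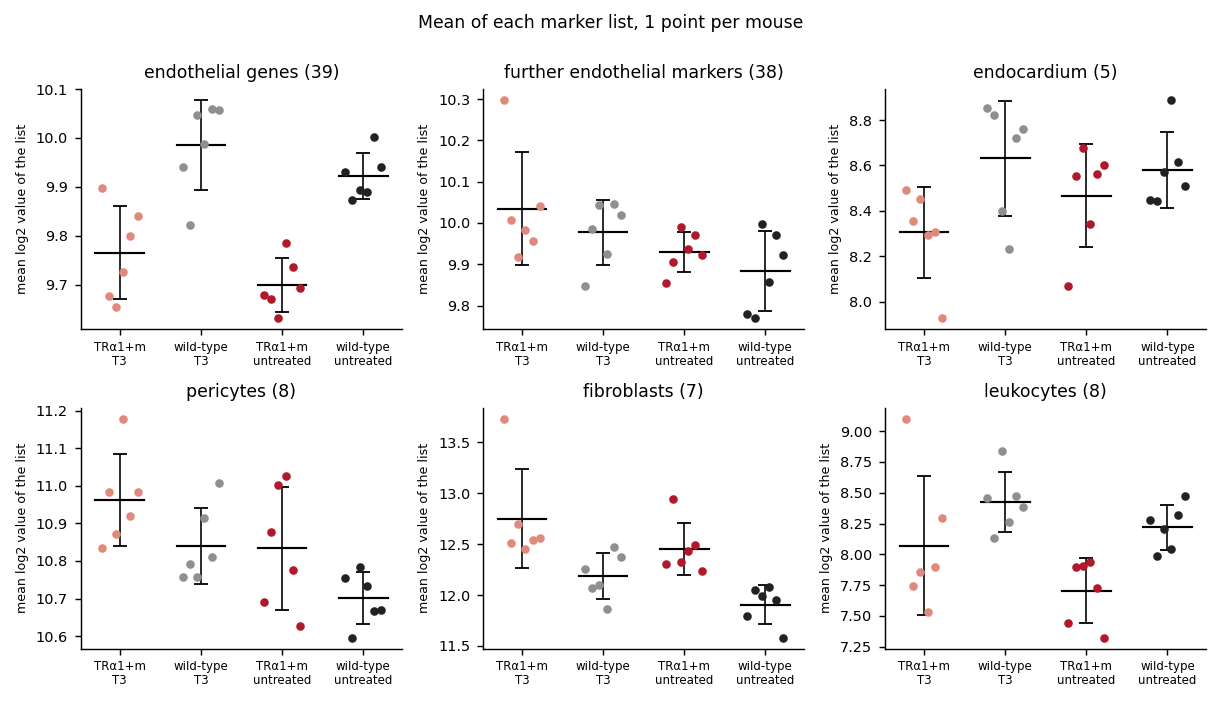
Mean log2 value of each marker list in each mouse (y axis), with 1 point per mouse, the group mean as a line and bars of 1 SD (6 mice per group). The endothelial list lies lower and the fibroblast list higher in TRα1+m hearts, and the further endothelial markers overlap between the genotypes.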

How the data were processed

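RNA of 24 whole hearts was hybridised to Clariom S arrays. The log2 values per probe set deposited by the authors came from RMA (background correction, quantile normalisation and summary over probes) and the Transcriptome Analysis Console 4.0.1, per the submitters' processing notes. Of 28846 rows, 6640 held controls and were not used. The platform annotation gave the symbols, brought up to date by gene number with GRCm38.p6, which matched all 19572 probe sets that had a single symbol. A symbol with several probe sets was represented by the one highest on average. Genes averaging above 4 on the log2 scale in any of the groups entered limma 3.58.1 in R 4.3.3 (lmFit and eBayes, 1 fit of 4 group means), with Benjamini-Hochberg adjustment over 19801 genes. The number of arrays limits the precision. Promoter sequences were from RefSeq (GRCm38.p6) and were found for 26 of the 42 symbols. All members on the array are named, the lowest, median and highest mouse of each group are given for those that passed, and the 3 smallest p where none did. The members and lists were chosen with earlier results of these data known. The paired analysis was not applicable, since each label number belongs to 1 mouse. The script was tested on simulated data. Alternatives concerned the filter, variance model, array weights, centring, groups in the fit, label range, probe sets, fold threshold and single mice.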

Additional observations from a re-analysis of the deposited data

Results flagged for a closer look

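In groups of 6, the gap of the highest or lowest mouse to its neighbour took up an unusually large share of the group's range (Dixon's test) in 10 of 156 combinations of gene and group (6.41%), where chance gives about 1 in 20. Among the 5 mice with separate scores on principal component 1, 3 account for 6 of the 10. T3-exposed TRα1+m mouse 17 was the lowest of its group for Pecam1 (12.05, the others 12.61 to 12.79) and the highest for Gpihbp1 (11.08, the others 9.68 to 10.18). Untreated TRα1+m mouse 4 was the lowest for Pecam1 (12.08, the others 12.44 to 12.64), Cdh5 (14.62, the others 15.19 to 15.41) and Flt1 (11.93, the others 12.32 to 12.47). T3-exposed wild-type mouse 15 was the lowest for Cldn5 (7.50, the others 8.29 to 8.69). Untreated TRα1+m mouse 54 was the highest for S1pr1 (12.21, the others 10.40 to 10.66) and the lowest for Icam2 (7.33, the others 7.96 to 8.22). T3-exposed wild-type mouse 47 was the lowest for Sox17 (3.44, the others 4.57 to 5.09), and untreated wild-type mouse 57 the highest for Apln (8.44, the others 6.87 to 7.32).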

How the results depend on the processing

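The falls of Aplnr and Vwf passed by genotype without T3, after T3 and over both treatments under all alternatives run, and those of Aqp1 in all but the mice numbered above 30 alone without T3 (-0.78, adjusted p = 0.126). No change reversed its sign. With mice numbered above 30 alone, 2 endothelial genes were lower without T3 in place of 5 (Aqp1, Tie1 and Thbd did not pass). Over both treatments these mice gave 7 lower genes in place of 10 (Ly6c1 in, Eng, Mmrn2, Sox7 and Thbd out). With a change of at least 1.5-fold 4 were lower over both treatments in place of 10 (Aplnr, Aqp1, Vwf and Tie1). Mmrn2 also missed the threshold over both treatments without a filter, with array weights, with centred arrays and with the label range as a block (adjusted p from 0.0501 to 0.053). With array weights, with the label range as a block and without the 5 mice set apart (chosen after seeing the data), 1 gene was higher over both treatments in place of 0, which was Efnb2. When each mouse was left out in turn, the genes lower numbered 4 to 6 without T3, 3 to 4 after T3 and 8 to 10 over both treatments. Against untreated wild-type mice, T3-exposed TRα1+m mice then had 3 to 5 lower and 0 to 1 higher. No paired analysis was possible because the label numbers are unique to each mouse. With 6 mice per group, changes that are small beside the spread between mice could not be called.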
